A study of Homo sapiens with 18 samples.

Results

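Kallikrein-related peptidases were examined in cells of the MCF10 breast cancer progression model with and without CRISPR targeting of Mettl3, the enzyme that places most N6-methyladenosine (m6A) on mRNA. The members were 9 genes of the kallikrein cluster on chromosome 19, chosen by symbol: KLK5, KLK6, KLK7, KLK8, KLK9, KLK10, KLK11, KLK13 and KLK14. They were 9 of the 35933 genes with values in all 18 libraries.

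The study asked whether lowering m6A acts differently at different stages of the disease. RNA was sequenced from 3 cell lines, each as a line labelled Control Negative CRISPR and a line labelled METTL3 knockdown, with replicates a, b and c for each of these 6 groups. MCF10A is a spontaneously immortalized, non-tumorigenic line of human breast epithelial cells. MCF10AT1 is an MCF10A derivative that carries a stably integrated, mutated HRas, and MCF10CA1h was obtained from MCF10AT1 by passing it through mice as xenografts, so that the mutated HRas is shared by both groups of these lines. Cells of all 6 groups had received a plasmid with Cas9, a guide RNA and mCherry, with a control guide in the negative lines and a guide to exon 1 of METTL3 in the knockdown lines. Cells were then sorted for mCherry and grown from single cells, so each knockdown group is 1 clonal line. The study also names a single negative CRISPR line for each cell line. Differences between clones therefore cannot be told apart from the effect of the knockdown, nor from differences between cell lines where negative lines are compared. The p-values measure only the spread between replicates of a line, which may be technical. Neither the labels nor the methods say whether the replicates were separate cultures.

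Kallikrein-related peptidases are secreted serine proteases that are made as inactive precursors and activated by removal of a short propeptide. Some cut like trypsin and some like chymotrypsin, and in the outer layers of stratified epithelium they act on each other in a cascade that cleaves the proteins holding cells together, held in check by inhibitors such as the SPINK5 product LEKTI. In the breast they are made by epithelial cells, and KLK10 was first named NES1, for normal epithelial cell-specific 1, because it was found in normal mammary epithelial cells and lost from many breast cancer lines.

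Values are the deposited DESeq2-normalized counts, which are comparable between libraries for 1 gene but neither whole reads nor corrected for gene length. They summed to between 21347352 and 31681834 per library, and the depth behind a single gene is unknown. METTL3 itself was not called in MCF10A, with 632 ± 154 normalized counts in the negative and 809.9 ± 261 in the knockdown libraries (SD, n = 3 each), nor in MCF10AT1, with 929.9 ± 111 and 823 ± 75.2. In MCF10CA1h it fell from 1135 ± 132 to 804 ± 52.3, a log2 fold change of -0.49 ± 0.12 (SE, limma adjusted p = 0.0234), while the two-sided exact permutation test of 3 libraries against 3 gave its smallest possible p of 0.1. That call was lost without replicate c of the negative line (-0.40, adjusted p = 0.0906) and without replicate b of the knockdown line (-0.44, adjusted p = 0.0854). The groups overlapped in MCF10A and MCF10AT1. A cut in exon 1 need not change the amount of transcript, so this is a limited check, and the group names below are those of the labels. The study reported less Mettl3 protein by Western blot in its knockdown lines, only moderately so in MCF10CA1h. By RT-PCR it described a lesser decrease of METTL3 mRNA. It found m6A in total RNA significantly lower in the MCF10AT1 and MCF10CA1h knockdown lines, and not significantly lower in MCF10A.

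The members lie within 140.9 kb of chromosome 19, from 50943303 to 51084245 in hg38, all on the minus strand (GENCODE annotation of the same build). KLK5 is the member at the low end of the interval and KLK14 the member at the high end. Some of the genes overlap. Of the 1443 exon bases of KLK9, 1390 also belong to a readthrough gene (ENSG00000269741) and 204 to KLK8, and 747 of the 1865 exon bases of KLK8 belong to the same readthrough gene, so the division of reads between KLK8 and KLK9 is uncertain. On the opposite strand, unnamed long non-coding genes share 202 exon bases with KLK5, 401 with KLK6 and 240 with KLK10. The strand setting of the counting is not given in the sources used here, so reads from these antisense genes cannot be told apart from those of the members.

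Start-site regions are shown for the members that had lower values in the MCF10AT1 knockdown in the test below and an entry in the RefSeq promoter table (GRCh38.p14). The table held 8 of the 9 members, without KLK8, and each window runs from 250 bases before the start site to 50 bases after it. The 4 windows are chr19:50952989-50953288 for KLK5, chr19:50969542-50969841 for KLK6, chr19:50983868-50984167 for KLK7 and chr19:51019660-51019959 for KLK10, read on the minus strand, and capitals mark matches to the motifs named after them.
KLK5: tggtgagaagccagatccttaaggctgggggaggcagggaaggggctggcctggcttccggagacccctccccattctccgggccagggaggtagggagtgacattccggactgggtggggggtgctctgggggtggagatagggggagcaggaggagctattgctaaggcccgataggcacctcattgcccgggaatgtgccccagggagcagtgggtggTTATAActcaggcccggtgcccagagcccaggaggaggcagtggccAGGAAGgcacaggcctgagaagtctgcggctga
KLK6: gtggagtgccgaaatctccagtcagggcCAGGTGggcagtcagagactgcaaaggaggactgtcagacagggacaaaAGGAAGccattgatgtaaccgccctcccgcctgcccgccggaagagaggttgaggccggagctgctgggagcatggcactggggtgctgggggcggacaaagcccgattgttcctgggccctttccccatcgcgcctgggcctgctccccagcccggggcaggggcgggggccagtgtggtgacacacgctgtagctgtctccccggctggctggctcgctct
KLK7: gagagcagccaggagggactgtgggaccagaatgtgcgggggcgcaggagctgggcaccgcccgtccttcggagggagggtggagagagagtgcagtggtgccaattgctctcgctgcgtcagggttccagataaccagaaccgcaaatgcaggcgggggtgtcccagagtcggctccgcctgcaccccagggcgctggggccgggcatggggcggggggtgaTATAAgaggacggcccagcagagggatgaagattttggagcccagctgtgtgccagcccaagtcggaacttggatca
KLK10: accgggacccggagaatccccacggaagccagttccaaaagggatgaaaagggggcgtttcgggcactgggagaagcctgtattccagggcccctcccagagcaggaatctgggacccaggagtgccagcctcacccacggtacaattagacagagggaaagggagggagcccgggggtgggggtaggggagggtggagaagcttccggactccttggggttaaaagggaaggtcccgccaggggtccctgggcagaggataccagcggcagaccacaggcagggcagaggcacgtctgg
The motifs searched on both strands were AACCNGTT (GRHL site), AGGAAG (ETS core), TGANTCA (AP-1 site), CACCTG (E2-box) and TATAA (TATA box), the last of which was put in this form after the windows had been seen. The KLK5 window held TATAA on both strands in overlapping matches at -29 and -28, counted in bases from the start site, and AGGAAG at 17. The KLK7 window held TATAA at -27 and no other match. The KLK6 window held CACCTG at -222 on the opposite strand, shown as CAGGTG. It also held AGGAAG at -173 on the strand shown, and no TATAA. The KLK10 window held none of the 5 motifs. Among all 35116 promoter windows of the table, TATAA was found in 20.4%, AGGAAG in 33.6%, CACCTG in 20.6%, TGANTCA in 7.71% and AACCNGTT in 1.73%. None of the 4 windows matched the GRHL or AP-1 letters.

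In the negative CRISPR lines KLK7 was the member expressed most highly in MCF10A and MCF10AT1, and KLK10 was in MCF10CA1h. Per kb of the canonical transcript, the mean level in MCF10A was 433 normalized counts for KLK7 (the chymotrypsin-like enzyme of the stratum corneum), 158 for KLK5 (a trypsin-like protease that activates other kallikreins) and 59.3 for KLK10. In MCF10AT1 the order per kb was again KLK7 with 258 and KLK5 with 106, followed by KLK6 with 62.1 and KLK8 with 55.3. KLK10 was at rank 5 there with 31.8. In MCF10CA1h KLK10 with 284 and KLK7 with 257 per kb were highest, and KLK5 was only the member of rank 7 with 16.8. KLK11 and KLK13 were between 0.319 and 5.85 per kb in all negative groups, and neither reached the mean of 10 normalized counts that a test required in any comparison.

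**Figure D1:**
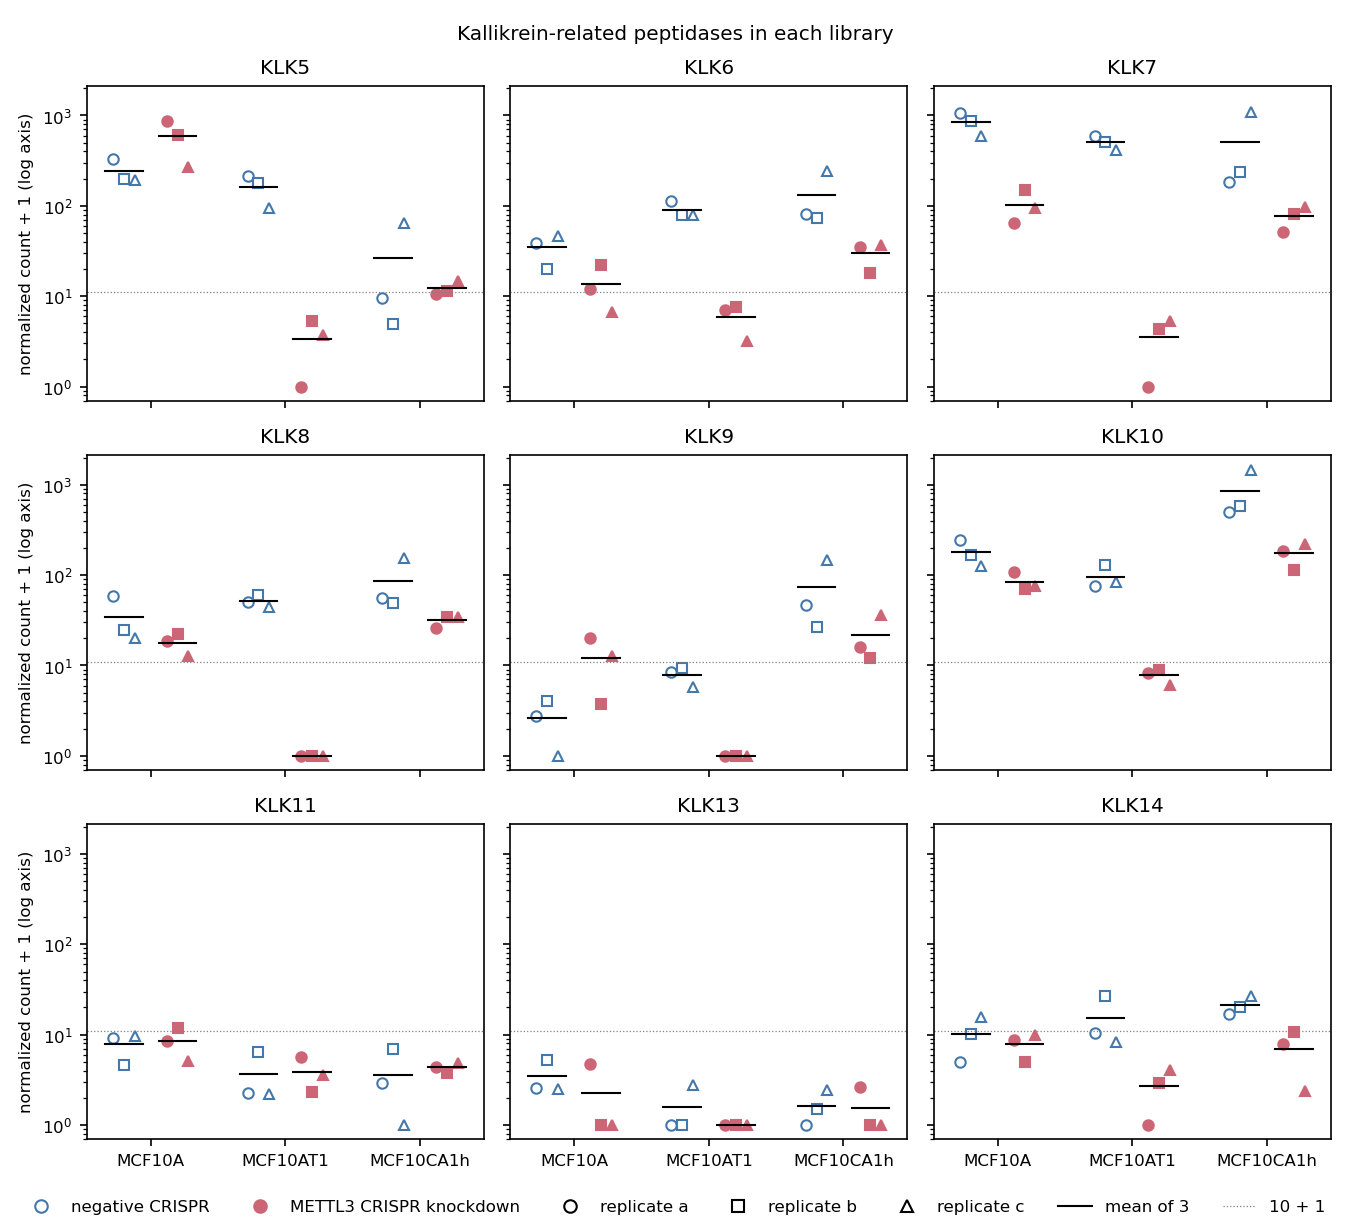
Normalized count plus 1 of each of the 9 members in each of the 18 libraries on a log axis, with negative CRISPR libraries as open blue and METTL3 CRISPR libraries as filled red symbols, a, b and c as circles, squares and triangles, and the mean of 3 as a black line. KLK5, KLK6, KLK7, KLK8 and KLK10 sit under the dotted line (a normalized count of 10) in all 3 MCF10AT1 knockdown libraries, KLK7 is lower in the knockdown libraries of every line, and replicate c of the MCF10CA1h negative line lies above its group for most members.

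A library stood apart for these genes. Replicate c of the MCF10CA1h negative line was the highest of its group for 8 of the 9 members, against 34.9% of all genes. Its mean correlation with the other libraries of its group over all genes was 0.979, and the other 2 libraries had 0.980 and 0.978. The members summed to 3188 normalized counts in it, and to 882 and 987 in replicates a and b. Calls of members and METTL3 that include this group are given with and without this library. The same holds for other log2 fold changes of members that moved by more than 1.5 times, except those that crossed 0, which are given with the alternatives. Levels per kb, folds and percentages of means, and the gene lists are given with this library only, and it raises the means of most members in its group.

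KLK5 was lower in the negative line of MCF10CA1h than in those of the earlier stages, and KLK10 and KLK9 were higher. KLK5 measured 331, 195 and 193 normalized counts in MCF10A (a, b and c), 211, 179 and 93.0 in MCF10AT1, and 8.60, 3.98 and 63.7 in MCF10CA1h. The MCF10CA1h values lay under all values of the other lines, whereas MCF10A and MCF10AT1 overlapped. The log2 fold change was -4.00 ± 0.81 against MCF10A (adjusted p = 0.00481, and -5.07 with adjusted p = 0.000860 without MCF10CA1h replicate c) and -3.39 ± 0.81 against MCF10AT1 (adjusted p = 0.0165), in a limma fit of the 9 negative libraries. The difference from MCF10AT1 was not called without MCF10AT1 replicate a or without MCF10CA1h replicate a or b, with adjusted p-values of 0.0638, 0.0665 and 0.0589, while without replicate c of MCF10CA1h it was -4.47 (adjusted p = 0.00171).

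KLK10 measured 243, 164 and 124 normalized counts in MCF10A, 74.1, 128 and 83.1 in MCF10AT1, and 494, 573 and 1471 in MCF10CA1h. All MCF10CA1h values exceeded those of the other lines, and the first 2 lines overlapped. KLK10 was 4.78 times as high as in MCF10A (log2 fold change 2.13 ± 0.44, adjusted p = 0.00542) and 8.91 times as high as in MCF10AT1 (3.002 ± 0.44, adjusted p = 0.00176). Without replicate c these log2 fold changes were 1.64 (adjusted p = 0.0186) and 2.51 (adjusted p = 0.00589).

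KLK9, a chymotrypsin-like member of little known function, was listed at 1.75, 3.09 and 0 in MCF10A, 7.42, 8.34 and 4.84 in MCF10AT1, and 46.0, 25.6 and 145 in MCF10CA1h. The groups of the 3 lines did not overlap. It passed the filter on low values only through MCF10CA1h, where it was called higher than in MCF10A (4.66 ± 0.75, adjusted p = 0.00169, and 3.98 with adjusted p = 0.00955 without MCF10CA1h replicate c) and than in MCF10AT1 (2.88 ± 0.75, adjusted p = 0.0239). Against MCF10AT1 the call was lost without MCF10CA1h replicate c (2.20, adjusted p = 0.101) or a (3.01, adjusted p = 0.0680) and without MCF10AT1 replicate a (2.94, adjusted p = 0.0632).

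KLK6, a trypsin-like protease best known from the nervous system, measured 38.0, 18.8 and 44.9 in MCF10A, 111, 78.1 and 77.3 in MCF10AT1, and 79.3, 72.9 and 239.7 in MCF10CA1h. The MCF10A values lay under those of both other lines, which overlapped each other. It was called higher in MCF10CA1h than in MCF10A (1.78 ± 0.51, adjusted p = 0.0215), but not without MCF10CA1h replicate c (1.23, adjusted p = 0.0778) or MCF10A replicate b (1.41, adjusted p = 0.0834). KLK7 had 1069.6, 877 and 596 normalized counts in MCF10A, 592, 506 and 419 in MCF10AT1, and 183, 238 and 1086 in MCF10CA1h, which spanned the other lines and gave no call. Without replicate c of MCF10CA1h, KLK7 was called lower there than in MCF10A (-1.98, adjusted p = 0.00520) and than in MCF10AT1 (-1.259, adjusted p = 0.0380).

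Between the negative lines of MCF10A and MCF10AT1, 0 of the 7 members tested were called by limma, where 28.1% of all genes tested were (14.7% lower and 13.3% higher), and 2 of the 7 had an unadjusted p under 0.05. Without replicate c of MCF10CA1h, which lies in the same fit, KLK6 was called there (1.43, adjusted p = 0.0400). For MCF10CA1h against MCF10A, 1 of 7 was lower and 3 were higher, beside 37.8% of all genes called (18.8% lower and 19.0% higher), and against MCF10AT1 1 was lower and 2 were higher, beside 21.8% (10.8% lower and 11.0% higher). Without replicate c of MCF10CA1h the counts were 2 lower and 2 higher against MCF10A and 2 lower and 1 higher against MCF10AT1. The 3 comparisons share libraries. KLK8 (neuropsin, a trypsin-like protease) and KLK14 (a trypsin-like protease of the skin cascade) were called in none of the 3, with log2 fold changes between 0.52 and 1.30. KLK8 was called against MCF10A without MCF10A replicate a (1.77, adjusted p = 0.0303), and without replicate c of MCF10CA1h its log2 fold change was 0.77 against MCF10A and 0.0214 against MCF10AT1.

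**Figure D2:**
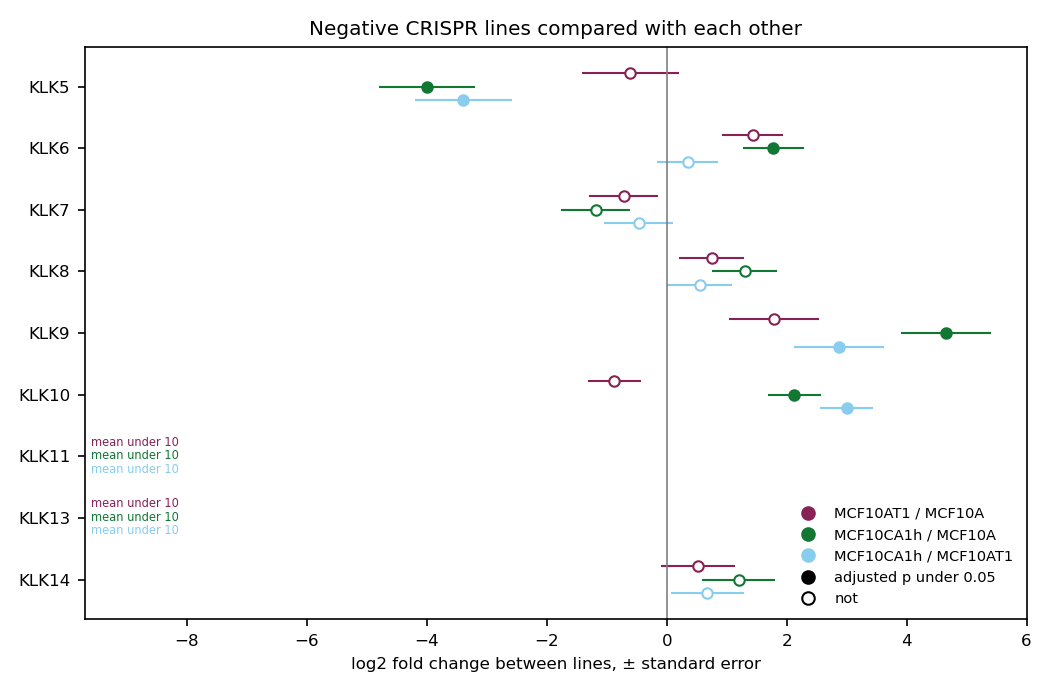
Log2 fold change with its standard error between the negative CRISPR lines, each member on its own row and the 3 pairs of lines in different colours, with filled points for an adjusted p under 0.05. KLK5 lies to the left and KLK9 and KLK10 to the right in both comparisons with MCF10CA1h, and KLK11 and KLK13 were under the mean of 10.

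In MCF10A the knockdown line had less KLK7 than the negative line, and its KLK5 was higher in the means though not by the unpaired test. KLK7 measured 1069.6, 877 and 596 normalized counts in the negative libraries and 63.8, 148 and 94.5 in the knockdown libraries. The groups were far apart, and the knockdown mean was 12.1% of the negative mean. The log2 fold change was -3.08 ± 0.35 (adjusted p = 0.00803), and it was called in each of the 6 fits that left out 1 library, with adjusted p-values of up to 0.0475.

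KLK5, the protease that can activate the KLK7 precursor, went the other way in the means. Its values were 331, 195 and 193 in the negative and 875, 614 and 266 in the knockdown libraries. Replicate c of the knockdown line lay within the negative range, so the groups overlapped. The log2 fold change of 1.17 ± 0.43 had an adjusted p of 0.200 without pairing and 0.0338 with the replicate letter as a block, the latter past the threshold. Neither the labels nor the methods state that the letters pair the samples. The pairing was inferred from these data, by weak correlations of deviations from the group means in this line.

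Of the 9 members, 5 were tested in MCF10A, and 1 was called lower and 0 higher, where 2.65% of all 15416 genes tested were called (1.49% lower). KLK10 had 243, 164 and 124 in the negative and 107, 69.8 and 74.3 in the knockdown libraries, which did not overlap, a separation that 13.4% of all genes showed in this direction, and its log2 fold change of -1.04 ± 0.32 had an adjusted p of 0.137. KLK6 (-1.44 ± 0.56, adjusted p = 0.223) and KLK8 (-0.81 ± 0.50, adjusted p = 0.450) had overlapping groups. The median over the 5 was -1.04, beside -0.0035 for all genes. KLK9 was listed at 1.75, 3.09 and 0 and then at 19.3, 2.74 and 11.6, KLK14 ranged from 3.93 to 14.5 over the 6 libraries, KLK11 from 3.66 to 10.8 and KLK13 from 0 to 4.30, and these 4 were under the mean of 10.

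KLK7 and KLK5 were also compared as their ratio within a library, which does not depend on the scaling between libraries. A fall of KLK7 alone lowers this ratio and raises the share of KLK5, so neither shows that KLK5 rose. In the MCF10A negative libraries KLK7 was 3.23, 4.50 and 3.08 times KLK5, and in the knockdown libraries it was 0.0729, 0.242 and 0.355 times KLK5. No knockdown library came near a negative one. KLK7 made up between 59.5% and 67.6% of the summed members in the negative libraries and between 5.74% and 19.8% in the knockdown libraries, while KLK5 went from between 15.0% and 19.3% to between 55.8% and 78.7%. In MCF10CA1h the ratio was also lower in the knockdown, at 5.37, 7.69 and 7.03 against 21.2, 59.8 and 17.1, with KLK5 at 13.7 normalized counts or less in 5 of these 6 libraries. In MCF10AT1 it was 2.81, 2.83 and 4.50 in the negative libraries, and of the knockdown libraries b had 0.780 and c had 1.58 on under 5 normalized counts of either gene, and a listed both genes at 0. The ratio was chosen after the values had been seen and was not tested.

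**Figure D3:**
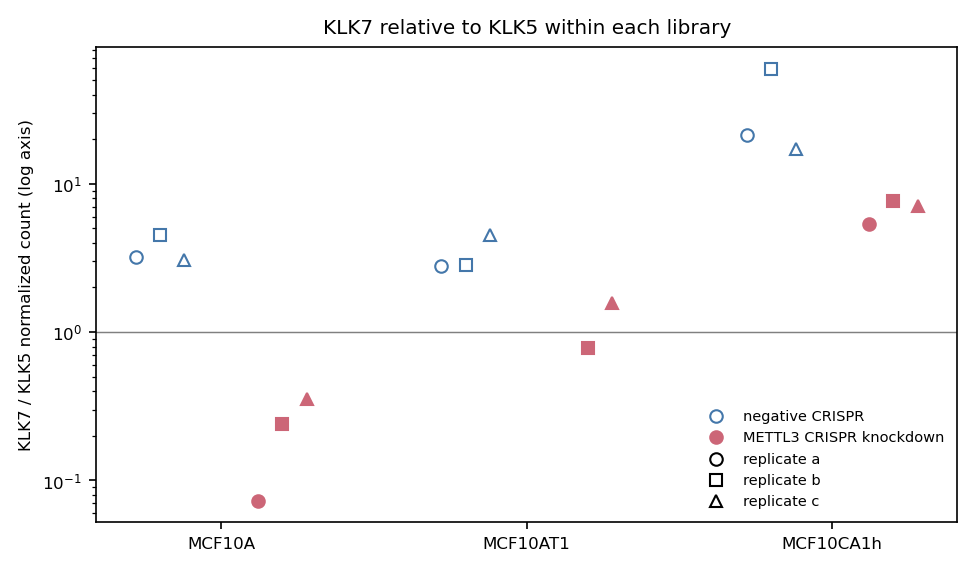
Ratio of the KLK7 to the KLK5 normalized count in each library on a log axis, with negative CRISPR libraries as open blue and METTL3 CRISPR libraries as filled red symbols and a grey line at a ratio of 1. The 3 MCF10A knockdown libraries lie under 1, between 0.0729 and 0.355, and replicate a of the MCF10AT1 knockdown has no point because both genes are listed at 0.

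In MCF10AT1 the knockdown line had almost none of the kallikreins that its negative line expressed. KLK7 measured 592, 506 and 419 normalized counts in the negative libraries and 0, 3.34 and 4.29 in the knockdown libraries. KLK5 measured 211, 179 and 93.0 and then 0, 4.28 and 2.71. For both genes every knockdown value lay far under the lowest negative value. On the log2 scale with 1 added to each value, the fold change was -7.46 ± 0.69 for KLK7 (adjusted p = 0.000331) and -5.83 ± 0.76 for KLK5 (adjusted p = 0.00173).

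KLK6 went from 111, 78.1 and 77.3 to 6, 6.69 and 2.19 normalized counts, with a log2 fold change of -3.99 ± 0.58 (adjusted p = 0.00299). KLK10 went from 74.1, 128 and 83.1 to 7.28, 7.95 and 5.06, a log2 fold change of -3.61 ± 0.52 (adjusted p = 0.00273). KLK8 was at 49.6, 58.9 and 43.3 in the negative libraries and was listed at 0 in all 3 knockdown libraries (adjusted p = 0.00101), so no fold is given. None of these groups overlapped, which held for 15.6% of all genes in this direction.

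Of the 9 members, 5 were tested in MCF10AT1 and 5 were called lower, where 13.0% of all 16050 genes tested were called (5.96% lower). Each of the 5 had a knockdown mean under 10 and so passed the filter on low values only through the negative line, which means that the count itself is no support. With a filter at a mean of 50, 3 members were tested and 3 called. They too passed only through the negative line, so this count is no support either. All 5 were called in every fit that left out 1 library, and the replicate block changed none of these calls. Of the members under the filter, KLK9 was at 7.42, 8.34 and 4.84 in the negative libraries and listed at 0 in all 3 knockdown libraries, and KLK14 was at 9.40, 25.8 and 7.30 and then at 0, 1.94 and 3.11. KLK11, the trypsin-like hippostasin, was at 1.29, 5.41 and 1.19 and then at 4.70, 1.35 and 2.56, with overlapping groups, and KLK13 was listed at 0 in 5 of the 6 libraries.

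The low kallikrein values of the MCF10AT1 knockdown line went with a wide change of its epithelial and mesenchymal marker genes. Of 10 epithelial markers tested, 7 were called lower and 0 higher there, beside 5.96% and 7.07% of all genes. Their summed level ranged from 116358 to 157829 in the negative and from 28678 to 58642 in the knockdown libraries. KRT8 and KRT18 overlapped between the groups and kept knockdown means of 14957 and 23183. The mean of TP63 was higher in the knockdown, at 559 against 357, with overlapping groups. Of the mesenchymal markers, 7 of 10 were tested, with 4 called higher and 0 lower, beside 7.07% and 5.96% of all genes. The sum ranged from 3785 to 5132 and then from 118103 to 206507. COL1A1 and PDGFRB had lower knockdown means, 81.8 against 117 and 19.0 against 21.8, with overlapping groups. The mesenchymal genes COL3A1, with a highest value of 2.25 in the negative libraries and a lowest of 384.9 in the knockdown libraries, and THY1, with 1.91 and 1199.5, were far apart, while COL1A2 and LUM, 2 of the 10, were under 10 in every library of both groups. COL3A1 and THY1 passed the filter on low values only through the knockdown line, so the count of mesenchymal markers is no support. Of the 5 immune markers with values, PTPRC, CD3E and LYZ were under 10 in every library, and the summed level of the list ranged from 776.1 to 1526 and then from 1972 to 2965, with CD14 between 517 and 1378 and then between 1745 and 2343. Of the 5 endothelial markers, VWF, CDH5, KDR and TEK were under 10 in every library, and PECAM1 overlapped between the groups, from 225 to 849 and from 377 to 635. The part of these marker changes in the kallikrein values was not tested. In bulk RNA, fewer cells that express a gene and less of its RNA per cell cannot be told apart. In MCF10A 1 of the 10 epithelial markers was called higher and 0 lower by limma, with a median of -0.08. At an unadjusted p under 0.05, 3 of them were lower and 1 higher. None of the 4 mesenchymal markers tested was called there by limma, with 3 lower and 1 higher at an unadjusted p under 0.05. Over all genes 1.49% were called lower and 1.16% higher in MCF10A. In MCF10CA1h 3 of 10 epithelial markers were higher and 0 lower, and of 8 mesenchymal markers 1 was lower and 2 were higher. Beside these stood 4.85% of all genes called lower and 7.91% called higher in that line.

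In MCF10CA1h the knockdown line had less KLK10, KLK7 and KLK6 than the negative line, and none of the members tested reached 0. KLK10 measured 494, 573 and 1471 normalized counts in the negative and 185, 114 and 219 in the knockdown libraries, without overlap. The knockdown mean was 20.4% of the negative mean, with a log2 fold change of -2.16 ± 0.38 (adjusted p = 0.00506). The call also stood without replicate c of the negative line (-1.67, adjusted p = 0.00530) and in each other fit that left out 1 library.

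KLK7 measured 183, 238 and 1086 in the negative and 50.8, 81.2 and 96.3 in the knockdown libraries, also without overlap. Its log2 fold change was -2.28 ± 0.55 (adjusted p = 0.0237) and -1.49 without replicate c of the negative line (adjusted p = 0.0164). Without knockdown replicate a or b the adjusted p was 0.0641 or 0.0659, so the call rested on these libraries. KLK6 went from 79.3, 72.9 and 239.7 to 34.2, 16.9 and 35.7, again without overlap, with a log2 fold change of -1.98 ± 0.47 (adjusted p = 0.0203). Without replicate c of the negative line it was -1.44 (adjusted p = 0.0512), and without knockdown replicate b -1.65 (adjusted p = 0.0759), neither of which passed the threshold.

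Of the 9 members, 7 were tested in MCF10CA1h, with 3 called lower and 0 higher, where 12.8% of all 15127 genes tested were called (4.85% lower). Without negative replicate c 2 were called and without knockdown replicate b only KLK10. KLK8 had 54.1, 48.0 and 155 in the negative and 25.1, 33.1 and 33.6 in the knockdown libraries, which did not overlap, as 15.3% of all genes did in this direction, and its log2 fold change of -1.258 ± 0.42 had an adjusted p of 0.0789. KLK14, which passed the filter only through the negative line, did not overlap either, with 16.0, 19.5 and 26.1 against 6.79, 9.65 and 1.38 (-1.86 ± 0.61, adjusted p = 0.0754). KLK9 with 46.0, 25.6 and 145 against 15.1, 11.1 and 35.5 overlapped (-1.56 ± 0.61, adjusted p = 0.128). Without negative replicate c the log2 fold change was -0.73 for KLK8, -1.68 for KLK14 and -0.88 for KLK9, none of them called. KLK5 was low in both groups, at 8.60, 3.98 and 63.7 against 9.47, 10.6 and 13.7, and its log2 fold change of -0.27 ± 0.81 was within its standard error. Without negative replicate c its mean was under 10 and it was not tested. The median over the 7 was -1.86, beside -0.02 for all genes.

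**Figure D4:**
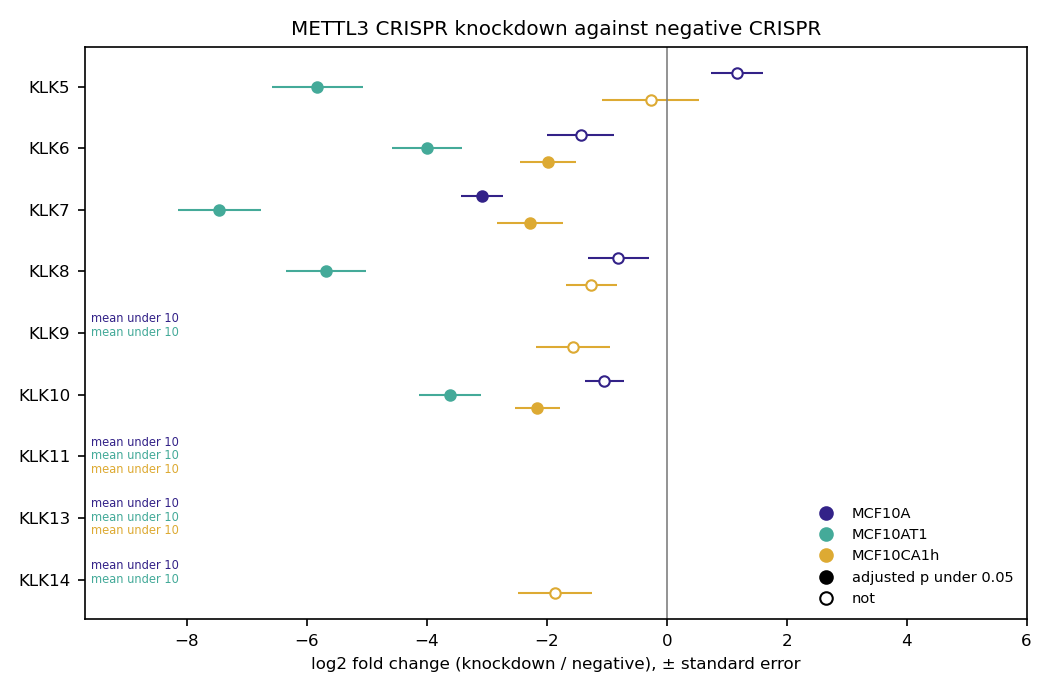
Log2 fold change of the knockdown against the negative CRISPR line with its standard error, on values with 1 added, for each member and line, with filled points for an adjusted p under 0.05. KLK7 lies left of 0 in all 3 lines, at -3.08, -7.46 and -2.28, KLK5 lies right of 0 in MCF10A, and the MCF10AT1 point of KLK8 depends on the value of 1 added because the gene is listed at 0 in that knockdown line.

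The difference of the knockdown effect between lines was tested in a single fit of the 18 libraries. Between MCF10AT1 and MCF10A 6 of the 6 members tested had a lower fold change in MCF10AT1, where 21.6% of all 15897 genes differed (10.5% lower and 11.2% higher). The difference was -6.996 ± 1.10 for KLK5 (adjusted p = 0.000214), the member with the largest, followed by KLK9, KLK8 and KLK7 (-4.38 ± 0.89, adjusted p = 0.00199), and it was -2.56 for both KLK10 (-2.565, adjusted p = 0.00394) and KLK6 (-2.556, adjusted p = 0.0286). That of KLK6 was not called in 5 of the fits that left out 1 library. The values for KLK8 and KLK9 rest on a group listed at 0 and so on the value of 1 added, and over the alternatives they ranged from -5.84 to -2.77 and from -6.38 to -2.41. KLK9 was under the mean of 10 in both of these lines and passed the filter of the 18 libraries only through MCF10CA1h, so the count of 6 is no support.

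Between MCF10CA1h and MCF10A 0 of 6 members differed, beside 5.34% of all genes (1.69% lower and 3.65% higher), and 1 of the 6 had an unadjusted p under 0.05, namely KLK9 (-3.70 ± 1.05, adjusted p = 0.0501, or 0.0399 with the replicate block). Without replicate c of the MCF10CA1h negative line KLK9 had -3.02 (adjusted p = 0.146), while KLK7 moved from 0.80 to 1.59, KLK5 from -1.44 to -0.36 and KLK10 from -1.12 to -0.63, none of them called. Between MCF10CA1h and MCF10AT1 KLK5 (5.56 ± 1.10), KLK7 (5.18 ± 0.89) and KLK8 (4.42 ± 0.68) had a higher fold change in MCF10CA1h, 3 of 6 beside 18.2% of all genes (8.51% lower and 9.67% higher), with adjusted p-values of up to 0.00185. KLK10 had 1.45 (adjusted p = 0.0948, or 0.0302 with the replicate block), and without replicate c of the MCF10CA1h negative line both KLK6 (2.56, adjusted p = 0.0377) and KLK10 (1.94, adjusted p = 0.0198) were called as well, with KLK5 at 6.64, KLK7 at 5.97 and KLK8 at 4.95. These comparisons share libraries with each other and with the comparisons within each line.

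The other kallikrein genes of the cluster with values were KLK1, KLK2 and KLK4. KLK1, tissue kallikrein, measured 19.9, 8.23 and 7.38 in the MCF10A negative and 51.8, 38.4 and 65.2 in the knockdown libraries, without overlap, with a log2 fold change of 2.14 ± 0.47 (adjusted p = 0.0584, and 0.0321 with the replicate block). In MCF10AT1 it went from 28.0, 65.8 and 31.8 to between 1.16 and 7.66 (-3.52 ± 0.78, adjusted p = 0.0213). KLK4, known from enamel and prostate, went from 46.3, 38.8 and 76.3 to 7.62, 0 and 7.06 in MCF10AT1 (-3.68 ± 0.92, adjusted p = 0.0342), and was not called in MCF10A (-0.30 ± 0.28) or MCF10CA1h (-0.08 ± 0.35). Both of the 2 tested in MCF10AT1 passed the filter through the negative line, and leaving out 1 library gave adjusted p-values of up to 0.0714 for KLK1 and 0.116 for KLK4. KLK2 was under 5 normalized counts in every library.

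Genes outside the family but within 500 kb of the cluster were called lower in none of the lines. Over all genes tested, 1.49%, 5.96% and 4.85% were called lower in MCF10A, MCF10AT1 and MCF10CA1h. With so few neighbours tested, 0 lies near these shares. Of 87 annotated neighbours 44 had values, and 12 were tested in MCF10A, 12 in MCF10AT1 and 13 in MCF10CA1h. In MCF10AT1 0 were called lower and 3 were called higher, EMC10 (1.21 ± 0.27), CLEC11A (2.98 ± 0.68) and CLDND2 (2.44 ± 0.54), beside 7.07% of all genes called higher. In the other lines 0 were called by limma. At an unadjusted p under 0.05, 0 were lower and 6 higher in MCF10AT1, 0 lower and 1 higher in MCF10A, and 2 lower and 3 higher in MCF10CA1h. The neighbours had a median log2 fold change of 0.13 (MCF10A), 0.90 (MCF10AT1) and -0.19 (MCF10CA1h).

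**Figure D5:**
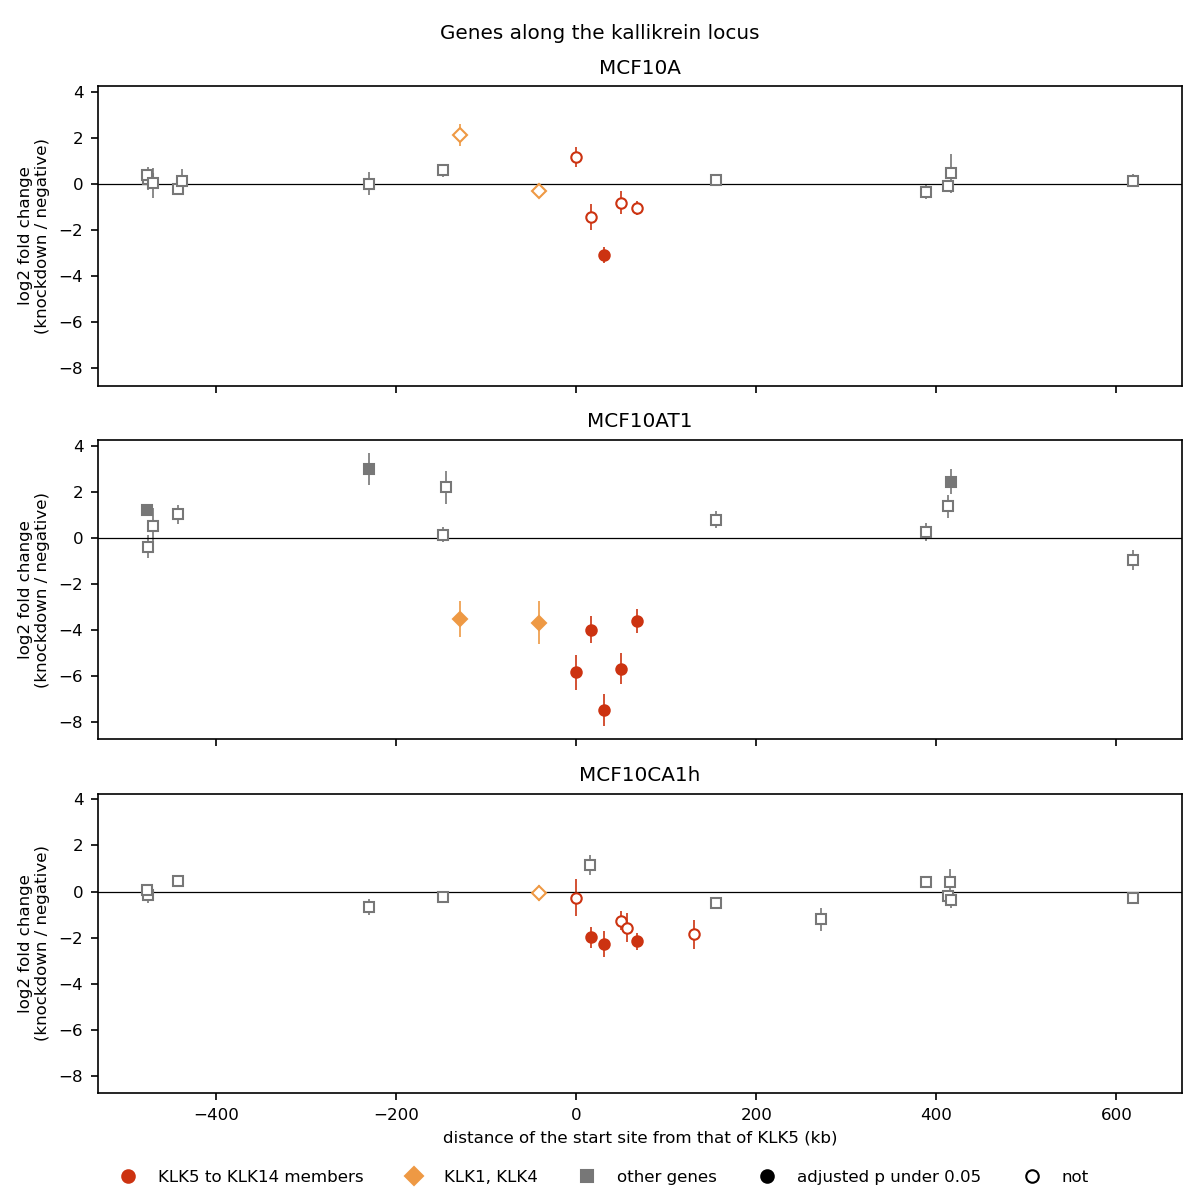
Log2 fold change with its standard error for the genes tested within 500 kb of the cluster, against the distance of their start site from that of KLK5 in kb, with the 9 members as red circles, KLK1 and KLK4 as orange diamonds and other genes as grey squares, filled for an adjusted p under 0.05. In MCF10AT1 the kallikreins lie between -3.52 and -7.46. None of the 12 neighbours was called lower there, beside 5.96% of all genes tested.

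The GGACT core of the motif in which METTL3 methylates adenosine was found in the canonical transcripts of 8 of the 9 members, from 1 copy in KLK8, KLK10 and KLK14 to 4 in KLK9, and not in KLK13. It was present in 87.8% of 20046 canonical protein-coding transcripts. The members had up to 2.86 copies per kb, in KLK9, and KLK10 with 0.335 lay under the median of 0.925 over all transcripts. KLK7 had 3 copies or 1.53 per kb and KLK5 3 copies or 1.98 per kb. Methylation itself was not measured per transcript in these libraries, and the letters say nothing of whether a site is used.

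Across the 18 libraries the members KLK6, KLK7, KLK8 and KLK10 had a Pearson's r on the log2 scale between 0.767 (KLK6 and KLK7) and 0.919 (KLK8 and KLK10) with each other. KLK9 had 0.809 with KLK10, 0.730 with KLK8, 0.601 with KLK6 and 0.448 with KLK7. KLK5 had 0.683 with KLK7 and between 0.108 (KLK9) and 0.506 (KLK8) with the others. With the mean profile of the 6 members that had a mean of at least 10 over all libraries, r was 0.983 for KLK8, 0.927 for KLK10, 0.918 for KLK7, 0.855 for KLK6, 0.740 for KLK9 and 0.574 for KLK5. These libraries share lines and groups, so r describes the pattern only.

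The genes outside the family whose profile was most like that of the 6 members, by r over the 18 libraries, were SPINT1 (0.938), CA2 (0.936), MARVELD3 (0.934), FXYD3 (0.934) and BIK (0.929). SPINT1 codes for HAI-1, an inhibitor of the membrane protease matriptase, and ST14, which codes for matriptase, stood at rank 8 with r = 0.919. OVOL2, a transcription factor of epithelial cells, was at rank 7 with the same rounded r of 0.919. ST14 had a mean of 1993 in the MCF10A negative line, 3846 in MCF10AT1 and 4057 in MCF10CA1h, and of 2182, 334 and 3890.1 in the knockdown lines. Each of the 10 genes most alike had its lowest group mean in the MCF10AT1 knockdown, where the 6 members also had theirs. These genes were chosen for their likeness over the same 18 libraries, so this is no support.

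Among inhibitors of kallikreins, 3 were lower in the knockdown of MCF10A and 3 in that of MCF10AT1. Of the 11 listed, 7 were tested in MCF10A, with 3 lower and 0 higher, namely PI3 or elafin (-3.23 ± 0.36), SLPI (-1.18 ± 0.17) and A2ML1 (-1.09 ± 0.20), and the median over the list was 0.32. In MCF10AT1 8 were tested, with A2ML1 (-5.61 ± 0.88), PI3 (-4.41 ± 0.55) and SPINK5 (-3.57 ± 0.52) lower and SERPINA1 (3.24 ± 0.34), which codes for alpha-1-antitrypsin, higher. SPINK5 went from 142 ± 55.3 to 10.6 ± 2.84 normalized counts there (SD, n = 3). In MCF10CA1h 0 of 8 were lower and 2 were higher, SPINK6 (2.405 ± 0.26), an inhibitor of kallikreins in skin, and SERPINA1 (1.04 ± 0.10). The medians of the list in MCF10AT1 and MCF10CA1h were -0.51 and 0.02, beside 0.02 and -0.02 for all genes.

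Proteases that activate kallikreins or act beside them changed most in MCF10AT1, where 5 of 8 tested were lower and 2 higher, with a median of -3.77. PRSS8, which codes for prostasin, had a log2 fold change of -9.42 ± 0.47, TMPRSS13 of -6.79 ± 0.68 and TMPRSS4 of -5.13 ± 0.72. In MCF10A 1 of 8 was lower, the cathepsin gene CTSV (-2.38 ± 0.22), and 1 was higher, PLAT, which codes for tissue plasminogen activator (3.71 ± 0.60). In MCF10CA1h 0 of 6 were lower, and PRSS8 (2.06 ± 0.26) and PLAU (0.57 ± 0.12), which codes for urokinase, were higher. Among genes whose products kallikreins cleave, 2 of 8 were lower in MCF10A, IL1B (-2.73 ± 0.42) and PLAUR (-1.29 ± 0.19), 1 of 8 was lower and 4 were higher in MCF10AT1, with fibronectin (FN1) at 10.08 ± 0.36, and 3 of 7 were higher and 0 lower in MCF10CA1h, with IL1B at 2.87 ± 0.29 and FN1 at 1.92 ± 0.16.

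Cornification genes, which build the outer envelope of keratinocytes, were lower in part in MCF10A and MCF10AT1. In MCF10A 4 of 9 tested were lower, among them SPRR3 (-3.98 ± 0.79), SBSN (-2.59 ± 0.48) and IVL (-2.31 ± 0.40), and 1 was higher, SPRR1B (1.25 ± 0.22). In MCF10AT1 4 of 7 were lower and 0 higher, among them TGM1 (-5.69 ± 0.43), IVL (-4.86 ± 0.64) and SPRR1B (-4.66 ± 0.64). In MCF10CA1h 1 of 9 was lower, KRT10 (-0.53 ± 0.14), and 1 was higher, IVL (1.13 ± 0.27). IVL thus fell with KLK7 in the first 2 lines and rose in MCF10CA1h, where KLK7 was lower.

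Transcription factors of stratified epithelium were called in MCF10AT1, where 5 of 11 were lower and 1 higher, with a median of -1.95. OVOL2 had a log2 fold change of -7.92 ± 0.65, ELF3 of -6.999 ± 0.51 and GRHL2 of -6.90 ± 1.06. In MCF10A 0 of 11 were called in either direction by limma, with 1 lower and 2 higher at an unadjusted p under 0.05, and in MCF10CA1h 1 of 10 was lower, ZNF750 (-2.59 ± 0.51), a factor of keratinocyte differentiation. GRHL2 was at 644 ± 294 normalized counts in the MCF10AT1 negative line and at 1.19 ± 1.09 in that of MCF10CA1h (SD, n = 3), in which KLK10, KLK7 and KLK6 were at 72.9 normalized counts or more in every library. Whether these factors have a part in the kallikrein values of any line was not tested. The lists were chosen with earlier results of these data known, and each count stands beside 1.49%, 5.96% and 4.85% of all genes called lower and 1.16%, 7.07% and 7.91% called higher in MCF10A, MCF10AT1 and MCF10CA1h. Among the genes named, A2ML1, PRSS8, TMPRSS13, TMPRSS4, IVL, SPRR1B and OVOL2 in MCF10AT1 and SPRR3 and SBSN in MCF10A had knockdown means under 10. These genes passed the filter only through the negative line, so list counts that include them are no support.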

How the data were processed

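RNA of 18 libraries was measured, and samples were grouped by title and genotype label, 3 per group. The methods text describes ribosomal RNA-depleted, stranded total RNA libraries sequenced from both ends, while its heading and the labels name polyA RNA. The authors pseudo-aligned reads to the hg38 transcriptome with Kallisto 0.46.1, summed them with tximport and deposited gene signal as counts normalized by DESeq2 1.26.0 in R 4.1.1. The annotation release and strand setting are not given in the sources used here. Between 18.5% and 41.3% of low values lay within 0.02 of whole multiples of the most frequent low value, so reads were not recovered and no count test was run. The table held 24646 further rows without values, 7 of them with a lone number, and 294 genes shared a symbol with a gene of higher values, which was used.

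Values were tested with limma 3.58.1 in R 4.3.3 (intensity trend) after adding 1 and taking log2, keeping genes whose mean over the fitted libraries reached 10, with Benjamini-Hochberg adjustment over all genes and a two-sided threshold of 0.05. Fold changes on this scale understate changes of low genes, and errors beside them are standard errors. The script was tested on simulated data. Positions and transcripts came from GENCODE and start-site windows from RefSeq, the window nearest the canonical start where a gene had several. Python 3.11.15 (SciPy 1.17.1, pandas 2.3.3) gave the remaining values.

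The members and lists were chosen with earlier results of these data known. All members and METTL3 are named, and of each list at most the 3 called genes of largest change per comparison, besides the genes most alike, the called neighbours and KLK2. Deviations from group means of same-letter libraries correlated at 0.221, 0.200 and 0.116 in MCF10A, where other letters reached at most 0.0087. A pairing by letter was inferred from this, though it is not stated by the labels or methods. Deviations within a group of 3 sum to 0, so the values for same and other letters are not independent. In MCF10AT1 same letters had 0.110, 0.289 and 0.477, but negative b and knockdown a had 0.251, so the pairing of a and b is unclear. In MCF10CA1h same letters had -0.011, 0.017 and 0.046. Other pseudocounts, filters, thresholds, scalings, a joint fit, the replicate block and leaving out each library were tried.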

Additional observations from a re-analysis of the deposited data

Results flagged for a closer look

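The knockdown effect on 6 members differed between MCF10AT1 and MCF10A by the interaction test of limma over 18 libraries, with a difference in log2 fold change of -6.996 for KLK5, -5.084 for KLK9, -4.871 for KLK8, -4.381 for KLK7, -2.565 for KLK10 and -2.556 for KLK6. The effect on 3 members differed between MCF10CA1h and MCF10AT1, by 5.56 for KLK5, 5.181 for KLK7 and 4.42 for KLK8. KLK8 and KLK9 are listed at 0 in the MCF10AT1 knockdown, so that their differences depend on the value of 1 added, and KLK9 was tested only because its values in MCF10CA1h raised its mean over 10. Of these 6, KLK5 and KLK9 had means that were higher in the knockdown of MCF10A and lower in that of MCF10AT1, and the means of the others were lower in both. The epithelial and mesenchymal marker genes moved with the MCF10AT1 values, and their part was not tested. Each knockdown is 1 clone per line, so line and clone cannot be told apart.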

How the results depend on the processing

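The count of members called in MCF10A was 0 with no filter and 2 with the replicate block, and in MCF10AT1 it was 3 with a mean of at least 50, since fewer members were tested. In MCF10CA1h it was 0 with no filter, 1 without the intensity trend, 1 at an adjusted p under 0.01, 1 in the joint fit, 5 with the replicate block (KLK8 and KLK9 added), where the letters share only a name, and 1 to 3 when single libraries were left out. METTL3 in MCF10CA1h kept its log2 fold change of -0.49 but lost its call with no filter, without the trend, at 0.01, with a required change of at least 1 on the log2 scale and in the joint fit, and it ranged from -0.56 to -0.40 when single libraries were left out, with the call lost without negative replicate c or knockdown replicate b. Between negative lines of MCF10CA1h and MCF10AT1 the count was 1 with no filter and 1 at 0.01, and 1 to 3 when single libraries were left out. With single libraries left out it was 0 to 1 for MCF10AT1 against MCF10A and 3 to 5 for MCF10CA1h against MCF10A.

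For differences of the knockdown effect, the count for MCF10AT1 against MCF10A was 3 with a mean of at least 50 and 5 to 6 with single libraries left out. For MCF10CA1h against MCF10A it was 1 without the trend, 1 with equal sums per library, 1 with the replicate block and 0 to 1 with single libraries left out, the gene being KLK9 each time. For MCF10CA1h against MCF10AT1 it was 3 to 5, and KLK9 turned from 1.39 to -0.15 with a pseudocount of 5. Values that crossed 0 when a library was left out, none of them called with all libraries, were KLK4 in the MCF10CA1h knockdown (-0.18 to 0.0637), KLK6 (-0.20 to 0.65) and KLK7 (-1.259 to 0.0242) between negative MCF10CA1h and MCF10AT1, and KLK6 (-0.98 to 0.0007) and KLK8 (-0.92 to 0.0778) in the difference between MCF10CA1h and MCF10A. Except where a value or a smaller number of members shows it, the cause was not tested. With no filter the smallest values enter the fit and the adjustment runs over more genes. Counting each single-gene result once under each alternative, 1302 values kept their direction and side of the threshold, 65 lost a call, 26 gained one and 6 changed sign. Beside the calls given with their results, the replicate block ended those of KLK9 (adjusted p = 0.0508) and KLK4 between negative MCF10CA1h and MCF10AT1, and it changed no other call of a member, KLK1, KLK4 or METTL3.

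The depth of single genes is unknown, so members whose mean over the fitted libraries was under 10 were not tested (KLK11 and KLK13 in every comparison, KLK9 and KLK14 between the groups of MCF10A and of MCF10AT1), and a value listed at 0 sets no limit on expression.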
